A study of Mus musculus with 3 samples.

Results

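Broad Yap1 domains were the merged anti-Yap1 ChIP-seq regions of mouse heart that were 8 kb or longer, whatever gene annotation they carried. This length rule took 615 of the 22020 deposited regions, which is 2.79% of the regions but 11.4% of the bases they covered. The signal of these regions had been measured in the hearts of wild-type C57BL/6J male mice, collected 7 days after sham surgery or after transverse aortic constriction, called TAC below. TAC is a banding of the aorta that makes the left ventricle pump against a raised pressure and leads to hypertrophy. One anti-Yap1 library was available for each operation, and an input library pooled from both kinds of heart was not used here. The design names 3 mice per operation, but the labels do not say whether each library pooled them, so every value below describes 1 sham library and 1 TAC library, with no replicate and no test between the operations.

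Yap1 is the transcriptional coactivator at the end of the Hippo pathway. It has no DNA-binding domain of its own and reaches DNA mainly through the TEAD transcription factors, often at enhancers that also hold AP-1 sites. When the Hippo kinases Mst1 or Mst2 and Lats1 or Lats2 are active, Yap1 is phosphorylated and held in the cytoplasm. In the heart Yap1 is known for cardiomyocyte proliferation and survival in the fetus and newborn. Long stretches of coactivator signal are in general found at clusters of enhancers near genes that define a cell type and at very active promoters. ChIP on whole heart mixes all its cell types, so fewer cells of a type and less Yap1 bound per cell cannot be told apart in any value below.

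The domains included promoters of direct Yap1 feedback, of the contractile apparatus and of the circadian clock, and 1 example of each kind, with a second contractile gene, is given here because these genes return in the results. The sequences are the 250 bases before the RefSeq start of each gene, read 5′ to 3′ on the strand of the gene, from RefSeq on build GRCm38.p6, the same build as the deposited coordinates (mm10). Capitals mark matches, on either strand, to the TEAD hexamer GGAATG, the GATA motif AGATAA or the circadian E-box CACGTG.
Amotl2 promoter, chr9:102717554-102717803, plus strand: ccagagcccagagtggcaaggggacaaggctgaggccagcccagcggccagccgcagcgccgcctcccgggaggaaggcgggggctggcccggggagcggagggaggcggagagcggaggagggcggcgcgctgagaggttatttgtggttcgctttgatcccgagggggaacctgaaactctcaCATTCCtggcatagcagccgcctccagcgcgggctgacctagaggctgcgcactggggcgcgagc
Myh6 promoter, chr14:54966608-54966857, minus strand: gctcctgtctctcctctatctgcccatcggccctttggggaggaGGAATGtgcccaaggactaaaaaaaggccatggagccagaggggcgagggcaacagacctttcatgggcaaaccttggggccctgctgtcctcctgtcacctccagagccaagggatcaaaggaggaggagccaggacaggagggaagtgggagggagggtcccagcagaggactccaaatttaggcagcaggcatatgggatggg
Tnnt2 promoter, chr1:135836084-135836333, plus strand: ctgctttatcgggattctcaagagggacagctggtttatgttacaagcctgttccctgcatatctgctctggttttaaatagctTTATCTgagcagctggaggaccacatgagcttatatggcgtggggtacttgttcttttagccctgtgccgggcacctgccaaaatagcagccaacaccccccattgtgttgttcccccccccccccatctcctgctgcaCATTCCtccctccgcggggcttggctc
Per1 promoter, chr11:69098699-69098948, plus strand: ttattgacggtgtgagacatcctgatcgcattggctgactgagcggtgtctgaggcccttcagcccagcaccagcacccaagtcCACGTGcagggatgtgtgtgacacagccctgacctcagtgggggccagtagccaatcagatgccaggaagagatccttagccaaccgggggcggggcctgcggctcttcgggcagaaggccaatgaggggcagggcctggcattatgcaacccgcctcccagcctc
The TEAD hexamer of Amotl2, a Hippo scaffold gene that is itself a Yap1 target, began 65 bases before the start, and that of Myh6, the adult cardiac myosin heavy chain, 206 bases before it. Tnnt2, cardiac troponin T, held a TEAD hexamer 27 bases before its start and a GATA motif at 166 bases, while the window of a second Tnnt2 start in the same domain held none of the 7 motifs searched. Per1, a repressor of the circadian clock, held an E-box 166 bases before this start, which is 1 of several annotated for the gene. Windows in domains with no match to any of these motifs included those of Dbp, Nr1d1, Nkx2-5 and Junb. The matches are letters in a window and not measured binding sites.

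Of the 594 domains on the chromosomes of the RefSeq promoter table, 312 (52.5%) held at least 1 RefSeq gene start. These starts gave 535 promoter windows of 414 genes. The TEAD hexamer was present in 83 of the 535 windows (15.5%), against 10.8% of the 9400 windows in shorter regions and 12.6% of all 32851 windows. A MEF2 motif, the site of a family of muscle transcription factors, was found in 12 domain windows (2.24%) and in 0.628% of the windows in shorter regions and 0.508% of all windows. The AP-1 motif TGANTCA stood in 6.36% of domain windows, 4.24% of windows in shorter regions and 6.75% of all windows. The E-box stood in 6.17% of domain windows, 8.71% of windows in shorter regions and 6.02% of all windows. GATA motifs stood in 6.54% of domain windows and 5.20% of windows in shorter regions, both below the 9.99% of all windows. CArG boxes, the site of serum response factor, stood in 2.06%, 1.19% and 1.47% of these windows in the same order, and the glucocorticoid response element (GNACA and TGTNC separated by 3 bases) in 0.935%, 0.266% and 0.387%. Both strands were searched in each case and matches of different motifs could overlap. The median GC content was 60.4% in both kinds of window, against 52.4% over all windows. Several windows belong to 1 gene and windows of neighbouring starts share bases, so these shares are given as descriptions.

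The domains ranged from 8001 to 33397 bases with a median of 9901 bases, and covered 6.87 Mb in all. They held 1631 of the 32930 intervals (4.95%) from which the regions had been merged. A total of 313 domains (50.9%, against 3.53% of all regions) were merged from 3 or more intervals, 259 from exactly 2 called in both libraries, and 43 were 1 long interval called in 1 library alone. Just inside the length limit lay the domain of Dpm2, Pip5kl1, St6galnac4 and St6galnac6 at 8001 bases, with an average signal of 12.6 in the sham and 9.34 in the TAC library, then Cyth1 at 8004 bases (9.35 and 7.42) and Pdlim4 at 8008 bases (12.5 and 7.35). Just outside it lay Ppp1r12b at 7992 bases (12.04 and 7.40), Ccdc85c at 7991 bases (11.8 and 7.69) and a region of Sf1 and Pygm at 7989 bases (12.8 and 8.52). The signals of the regions just inside and just outside the limit overlapped.

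Signal was higher in the domains than in shorter regions, in both libraries. The average signal is the deposited mean signal over a region, in the authors' own unit. The sources used here state neither the depth of the libraries nor any scaling between them. Its median over the domains was 14.0 in the sham library (quartiles 12.5 and 16.5) and 9.06 in the TAC library (quartiles 7.84 and 10.5). In the 21405 regions under 8 kb the medians were 10.5 and 7.40. Signal rose with length, and the step at the limit was small. The medians were 13.2 and 8.44 at 6 to 8 kb, against 13.3 and 8.66 at 8 to 10 kb. The maximum signal, the highest point in a region, had a median of 44 in the sham and 28 in the TAC library in the domains, against 24 and 17 in shorter regions. Domains were also more uneven along their length, since the maximum was 3.08 times the average in the sham and 3.09 times in the TAC library. It was 2.29 and 2.30 times in shorter regions, and 2.62 and 2.68 times in those of 4 to 8 kb. A longer region has more positions at which a high point can lie, and the part of this in the ratio of maximum to average was not tested. Domains held 14.0% of the summed sham signal over all regions and 13.4% of the summed TAC signal, with length-weighted mean signals of 15.1 and 9.57 against 11.98 and 7.97 in shorter regions.

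**Figure D1:**
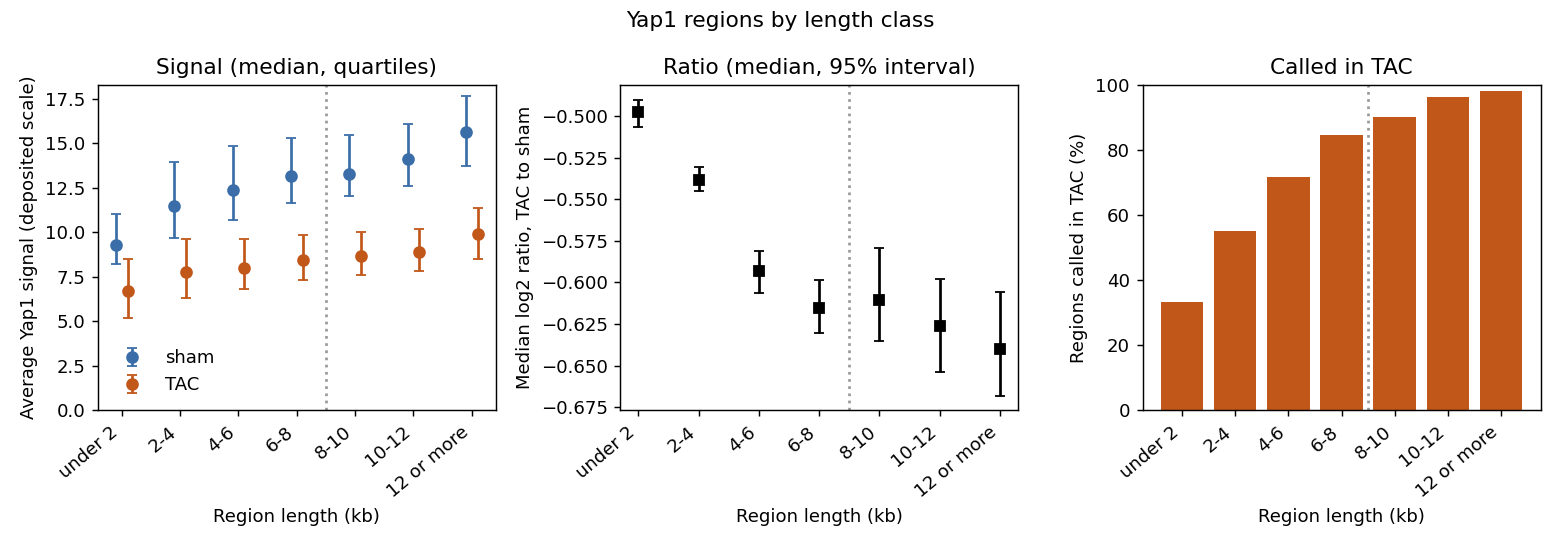
Regions by length class from under 2 kb to 12 kb and over. Shown are the median average signal in each library with quartiles, the median TAC to sham ratio (log2) with its 95% interval over regions, and the percentage called in the TAC library. Signal and this percentage were highest in the longest class, where 98.2% of regions were called in TAC.

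Most domains were called as bound in both libraries. The domains called in the TAC library numbered 576 (93.7%, exact 95% interval 91.4 to 95.5), against 48.7% of all regions and 75.3% of the 2704 regions of 4 to 8 kb. In the sham library 611 domains were called (99.3%, against 96.6% of all regions). Both libraries called 572 domains (93.0%, against 45.3%), the sham library alone 39 (6.34%, against 51.3%) and the TAC library alone 4 (0.650%, against 3.40%). A region called in both libraries is a merge of intervals from each, which can lengthen it, so the length rule and the number of libraries that called a region are not independent. The 4 domains called only in TAC lay at Tns1, Ptp4a3, Plec and a cluster that holds Cd151, Tspan4 and the lipase gene Pnpla2. Their average signal was nevertheless 18.3 to 20.2 in the sham library and 12.1 to 14.1 in the TAC library. All 4 thus had more sham than TAC signal although the sham library carried no call there.

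TAC signal was lower than sham signal in all but 1 domain by the average signal. Over the domains the log2 ratio of TAC to sham, with 1 added to each average signal, had a median of -0.62 (95% interval over domains -0.64 to -0.60), a 1.54-fold lower TAC signal. Values ran from -1.05 to 0.01 with an SD of 0.168 between domains. The median over all 22020 regions was itself -0.54, a 1.45-fold lower TAC signal, and no scaling between the libraries is stated, so the ratio is also given against other regions. Shorter regions had a median of -0.53, and the domains minus shorter regions gave -0.0922 on the log2 scale. Regions of 4 to 8 kb had a median of -0.60. The spread between regions narrowed with length. Its SD was 0.322 in all regions under 8 kb, but 0.379 under 2 kb, 0.204 at 6 to 8 kb and 0.179 at 8 to 10 kb. A lower TAC signal by 1.5-fold or more was found in 362 domains (58.9%, exact 95% interval 54.9 to 62.8), against 43% of all regions, and a higher one by that size in 0, against 0.486%. Of the regions of 4 to 8 kb, 52.7% were lower and 0 higher by that size. Relative to the median of all regions, 0 domains were lower and 0 higher by 1.5-fold. The shares were 2.31% and 4.42% of all regions, and 0.481% and 0.407% of those of 4 to 8 kb. Below the median of all regions lay 425 domains (69.1%, against 50% of all regions by its definition and 61.7% of regions of 4 to 8 kb). With the maximum signal the median was -0.66 in the domains and -0.55 in shorter regions. By this measure 363 domains (59.0%, against 47.6% of all regions) were lower by 1.5-fold or more, while 0 were higher by that size (against 0.963%). In regions of 4 to 8 kb, 53.1% were lower and 0 higher by that size. The intervals cover the spread between regions or counting error only, not the spread between mice.

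**Figure D2:**
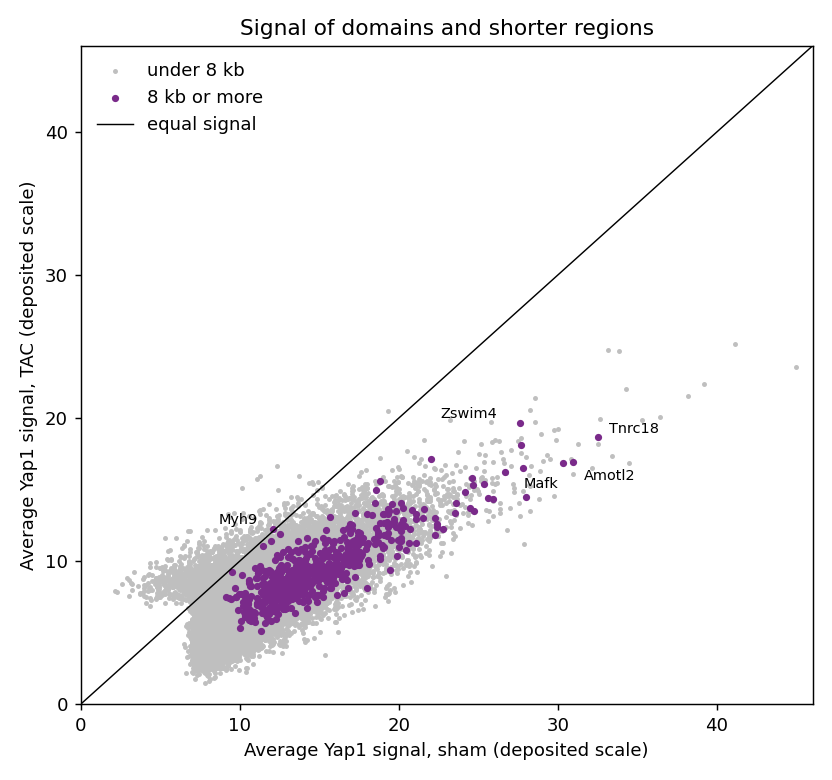
Average signal of each region in the sham library against the TAC library, with the 615 domains over the shorter regions and the line of equal signal. All domains except 1 at Myh9 lie on the sham side of the line, and among domains Tnrc18, Amotl2 and Mafk have the highest sham averages.

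The difference from shorter regions varied with the kind of region. Domains with a counted promoter stood at a median of -0.62 (-0.64 to -0.60) and those without one -0.63 (-0.65 to -0.60). Among shorter regions the corresponding medians were -0.48 and -0.58. Domains with and without a promoter thus had nearly the same ratio, while shorter regions with a promoter had the smaller decrease. By length the median was -0.50 under 2 kb, -0.54 at 2 to 4 kb, -0.59 at 4 to 6 kb and -0.62 at 6 to 8 kb, and stayed between -0.61 and -0.64 in the 3 classes from 8 kb up. Across domains the sham and TAC averages had a Spearman correlation of 0.78 (0.66 across shorter regions), and length had one of -0.07 with the ratio. Regions of 1 library share its depth and scaling, so these correlations across regions are descriptions.

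The 10 longest domains ran from 23.5 to 33.4 kb. The longest of all, 33.4 kb on chromosome 19 (chr19:6273846-6307243), was listed for Mir194-2, Mir192, Ehd1 and Cdc42bpg and had an average signal of 15.8 in the sham and 10.3 in the TAC library. The Mir194-2 and Mir192 hairpins lay 9118 and 8914 bases outside it. Ehd1 encodes a membrane-remodelling ATPase of endosome recycling, which is also known for surface delivery of cardiac channels. The second, 32.6 kb, lay inside Zbtb16 (chr9:48720390-48752943), which encodes the zinc finger repressor PLZF, and averaged 19.9 in the sham and 12.4 in the TAC library with maxima of 126 and 72. It was merged from 7 intervals, as was the 23.7 kb domain inside Cuedc1 (17.5 and 10.3), the most of any domain. In the third, 31.9 kb inside Tns1 (chr1:73987167-74019088), a focal adhesion protein gene, the averages were 18.8 and 12.7. A 31.0 kb domain (chr3:96550015-96581031) was listed for Txnip, an inhibitor of thioredoxin and of glucose uptake, with Gm15441 and Polr3gl, and averaged 22.3 and 13.0. All 4 of these had a lower TAC average, with log2 ratios of -0.58, -0.64, -0.53 and -0.73 in this order.

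The other 5 of the 10 longest, apart from that of Cuedc1, showed the same order of the libraries. Trak1, an adaptor of mitochondrial transport, held 26.2 kb with averages of 15.6 and 9.46. Pim3, a serine and threonine kinase gene, held 25.9 kb (20.7 and 11.3) and had the lowest ratio of the 10 at -0.82. The cluster of Gm10023, Bcl9l and Cxcr5 held 25.6 kb (17.1 and 10.6). Hspg2, the gene of the basement membrane proteoglycan perlecan, held 24.9 kb (19.3 and 13.3), and the cluster of Eif4b, Tenc1 and Spryd3 23.5 kb (20.2 and 14.1). Tenc1 encodes tensin 2, a relative of Tns1.

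**Figure D3:**
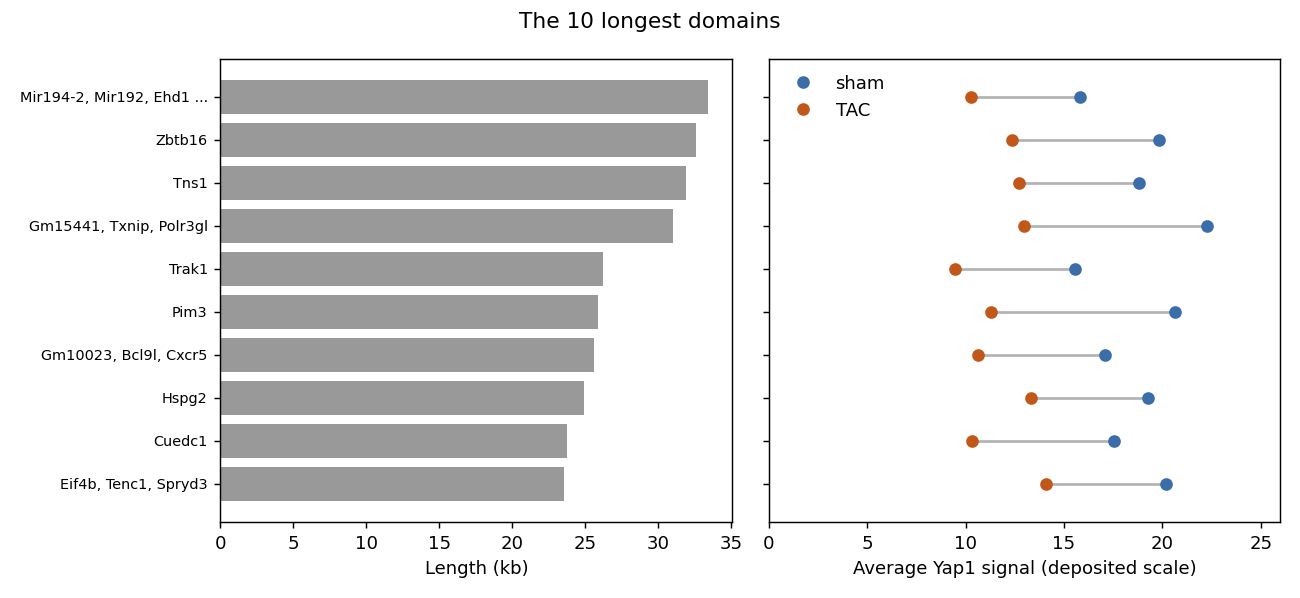
The 10 longest domains with their length in kb and their average signal in the sham and TAC libraries. Each has a lower TAC than sham average, with sham values from 15.6 to 22.3.

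The strongest domains are named here by average and by maximum signal. By average sham signal the first was at Tnrc18, a chromatin protein gene (32.5 in the sham and 18.7 in the TAC library), the second at Amotl2 (chr9:102713297-102734572, 31.0 and 16.9) and the third at Mafk, a small Maf transcription factor gene (30.3 and 16.8). Rhof with Setd1b followed (28.0 and 14.5), then Junb, an AP-1 subunit gene (27.8 and 16.5). By average TAC signal the order was the domain of Zswim4 with the Mir23a, Mir27a and Mir24-2 cluster (19.7, with 27.6 in the sham library), Tnrc18, the domain of Tubg2, Plekhh3, Ccr10 and Cntnap1 (18.1, with 27.7), the domain of Armc12 (17.1, with 22.0) and Amotl2. The highest points showed another order. In the sham library the maximum was 275 at Amotl2, 218 at Vamp2 and Per1, 182 in a domain with no listed gene (chr8:122228782-122240854), 165 at Ctdsp2 and Mir26a-2, and 151 at Ccnd1, the gene of cyclin D1. In the TAC library Per1 was highest at 142, ahead of Amotl2 at 139, Plekhh3 at 102, Rbpms at 89 and the unlisted domain on chromosome 8 at 88. Amotl2 and Per1 were thus the first and second in both libraries, in opposite order.

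Domains with no listed gene stood among both the lowest and the highest log2 ratios. The lowest, -1.05, was in a domain with no listed gene on chromosome 5 (chr5:122522288-122530979), which averaged 17.97 in the sham and 8.15 in the TAC library and lay 9286 bases from Ift81 and 20063 bases from Atp2a2, the sarcoplasmic reticulum calcium pump gene. Pde7b, a phosphodiesterase gene, followed with averages of 11.3 and 5.14 (-1.003), then Entpd6 with Pygb, the brain form of glycogen phosphorylase (16.5 and 7.80, -0.99). Ide, the insulin-degrading enzyme gene (16.1 and 7.65), an unlisted domain on chromosome 12 (chr12:70648504-70658666, 14.2 and 6.71) and Pcdh7 with 4932441J04Rik (19.4 and 9.38) each stood at -0.98. The TAC average was far below the sham average in all 6. At the other end stood Myh9, nonmuscle myosin heavy chain IIA, whose domain inside the gene averaged 12.1 in the sham and 12.2 in the TAC library (0.01). It was the 1 domain of 615 with a higher TAC average (0.163%, against 5.38% of all regions and 0.518% of those of 4 to 8 kb). By maximum signal the same domain was lower in TAC, 28 against 36. The other 2 Myh9 domains had ratios of -0.37 and -0.37.

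Basement membrane collagen genes were next to Myh9 in this order. The 2 domains inside Col4a2 averaged 9.55 and 12.5 in the sham library and 9.27 and 11.9 in the TAC library, with ratios of -0.04 and -0.07. Their maximum signals were higher in TAC, 31 against 26 and 50 against 37. The single domain inside Col4a1, whose gene lies head to head with Col4a2, averaged 11.0 and 9.49 (-0.19), but its maximum was lower in TAC, 24 against 48. Sbno2 stood at -0.05, and unlisted domains on chromosome 7 (chr7:145105462-145114327) and chromosome 6 (chr6:31074621-31083557) at -0.06 and -0.15. A higher maximum in TAC was found in 12 of the 615 domains (1.95%, against 8.06% of all regions and 3.59% of those of 4 to 8 kb). Both Col4a2 domains, Sbno2 and Actn4, a nonmuscle alpha-actinin gene with 53 against 43, were among the 12.

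Some genes had several domains. The table listed 935 genes to a domain, of 13464 listed to any region (6.94%). Of the 935, 96 were listed to 2 or more domains and 16 to 3 or more. Tns1 had the most, 7 domains over 130.8 kb (chr1:73908013-74038787) that filled 79.3% of that stretch. Their averages were 10.6 to 19.4 in the sham and 8.55 to 13.5 in the TAC library, with ratios from -0.57 to -0.26. Rbpms, an RNA-binding splicing regulator of cardiac and smooth muscle, had 4 domains with ratios from -0.71 to -0.65, and Dab2ip, a Ras GTPase-activating scaffold, 4 from -0.55 to -0.33. The ratios thus lay closer together within Rbpms than within Dab2ip or Tns1. Ablim1, Bahcc1, Ldb3, Rcsd1, Sema3b and Zbtb16 had 3 each.

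Some neighbouring domains formed runs, and the share of shorter regions that do so was not computed. With gaps under 20 kb, 157 domains (25.5%) fell into 69 runs, of which 55 held 2 domains, 12 held 3 and 2 held 4 or more. The smallest gap was 4 bases, so some nearly adjacent stretches stand as separate domains in the deposited regions. The Tns1 run was the longest. The second held 4 domains around Rassf1, Hyal2, Sema3b and Gnai2 on chromosome 9, and runs of 3 lay at Trak1, at Thra with Nr1d1, at Ldb3, at Bahcc1 (96.5% of its stretch covered), at Rcsd1 and across Myh6 and Myh7. Genes listed to a domain were not longer than other genes, with a median span of 16.0 kb against 20.7 kb for genes listed to shorter regions alone. They had a median of 3 regions each, domains included, against 1.

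Domains held promoters and CpG islands more often than shorter regions, but more sparsely per base. A promoter was counted in 336 domains (54.6%, exact 95% interval 50.6 to 58.6), against 44.4% of all regions, and a CpG island in 300 (48.8%, against 36%). In 138 domains (22.4%, against 11.6%) 2 or more promoters were counted. For each 100 kb the domains had 7.66 counted promoters and 6.75 CpG islands, against 23.0 and 15.2 in shorter regions. The higher share per domain therefore went with more bases per domain. Domains with a promoter had the higher signal, 15.01 in the sham and 9.59 in the TAC library, against 13.1 and 8.44 in domains without one. Of the 320 domains listed for 1 gene, 271 (84.7%) had their midpoint in the gene, against 78.5% of the 11864 shorter regions listed for 1 gene, and 145 (45.3%, against 41.1%) had it inside the gene over 20 kb from the start. A midpoint within 5 kb of the start was found in 88 (27.5%, against 36.2%).

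Domains with no listed gene numbered 36 (5.85%, against 16.6% of all regions). Of these, 7 overlapped a RefSeq protein-coding gene on the same build, 9 lay within 20 kb of one and 4 over 100 kb from one. The strongest by maximum signal, on chromosome 8, averaged 18.8 in the sham and 10.1 in the TAC library and overlapped the RefSeq gene Zfp469. Others lay 17736 bases from Ryr2, the cardiac ryanodine receptor gene (15.3 and 8.13), 10968 bases from the homeodomain gene Hopx, 10596 bases from Ddit4 and 11621 bases from Dusp1. These genes were named by distance and after their values were seen.

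Domains were not evenly spread over the chromosomes. The X chromosome had 0 domains among 284 regions, which allows a share of up to 1.06%, against 615 of 21732 autosomal regions (2.83%). The X regions were shorter, with a median of 1458 and a maximum of 6519 bases, and had a median average signal of 9.04 in the sham library, against 10.7 on the autosomes. The mice were male and carry 1 X chromosome, and the part of copy number in this was not tested. Among autosomes the share of regions that were domains was 4.24% on chromosome 19 (33 of 778), 4.09% on chromosome 15 (38 of 928) and 3.83% on chromosome 11 (63 of 1646). It was lowest on chromosome 13 (11 of 988, 1.11%) and chromosome 3 (17 of 1079, 1.58%).

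Domains were counted over gene lists of heart muscle, signalling, metabolism and cell type. Across 19 lists of 347 different genes, 83 of the 293 with any region had a domain, while 6.94% of all genes with a region had one. The lists were chosen for heart biology with earlier results of these data known, so their shares describe them and test nothing. Among cardiac regulators, which included the splicing factor gene Rbm20, 10 of 24 genes with a region had a domain. All 13 domains had a ratio below the median of all regions, with a median of -0.68. Of all 615 domains, 425 (69.1%) lay below it, the share to set beside this count in each list below. Gata4 averaged 13.0 in the sham and 8.04 in the TAC library (-0.63), Tbx20 14.2 and 8.26 (-0.71), Mef2d 17.3 and 10.5 (-0.67) and Klf15 18.5 and 11.2 (-0.67). Nkx2-5, the homeodomain factor of the early heart, averaged 11.7 and 6.46 (-0.77), and its domain was not called in TAC, nor were those of Gata6 and Irx4 and 1 of those of Rbm20. Rbm20, which controls splicing of titin, had 3 domains far inside the gene, with ratios from -0.73 to -0.68. Hand2, a basic helix-loop-helix factor, had 2 (-0.60 and -0.64), with midpoints 4913 bases upstream and 5478 bases downstream of its start. The upstream one reached over the start. Gata6, Irx4 and Nfib completed the list at -0.72, -0.76 and -0.56.

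Of the sarcomere and Z-disc genes, 13 of 31 with a region had a domain. Below the median of all regions lay 14 of their 16 domains, against 69.1% of all domains (median of the list -0.64). The domain over the Myh6 start averaged 15.9 in the sham and 9.06 in the TAC library (-0.75), with maxima of 82 and 45. A second domain inside Myh6 averaged 9.76 and 7.49 (-0.34), and that over the start of Myh7, the slow and fetal cardiac myosin, 12.6 and 8.19 (-0.57). Neighbouring domains of 1 locus thus differed in ratio. Mybpc3, myosin-binding protein C, averaged 14.0 and 7.78 (-0.77), Tnnt2 13.3 and 8.22 (-0.63), Tnnc1, cardiac troponin C, 14.9 and 9.31 (-0.63) and Actc1, cardiac actin, 13.5 and 7.51 (-0.77). The 3 domains of Ldb3, a Z-disc protein gene, had ratios of -0.82 at the start and -0.47 and -0.64 inside the gene. Csrp3, Des, Myom1, Synpo2l and Xirp1 had 1 domain each, with ratios from -0.75 to -0.55. That of Des was listed downstream, with its midpoint 18264 bases from the Des start, and was shared with Speg and Gm15179.

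Calcium handling and channel genes had a domain in 8 of 24 cases. All 10 of these domains lay below the median of all regions, against 69.1% of all domains (median of the list -0.70). Pln, the phospholamban inhibitor of the calcium pump, averaged 12.8 and 6.67 (-0.85), and Ryr2 10.7 and 5.91 (-0.75), without a call in TAC. Kcnq1, a repolarizing potassium channel gene, had 2 domains (-0.69 and -0.88). Jph2, whose protein joins the sarcoplasmic reticulum to the T-tubule, had 2 domains (-0.60 and -0.61). Asph, Kcnj11 and Hcn2 stood at -0.64, -0.64 and -0.74. The Kcnj11 domain was shared with Abcc8 and had its midpoint 13784 bases upstream of the Kcnj11 start. The Hcn2 domain was shared with Gzmm and Bsg and had its midpoint 7840 bases upstream of the Hcn2 start. When only domains listed for 1 gene were counted, 5 genes of this list had a domain.

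Fatty acid and glucose genes had a domain in 8 of 32 cases with a median of -0.75. Of the 8 domains, 7 lay below the median of all regions, against 69.1% of all domains. Acsl1, which activates long-chain fatty acids, averaged 13.2 in the sham and 6.69 in the TAC library (-0.88), and Hk2, hexokinase 2, 14.6 and 7.91 over 21.4 kb (-0.81). Fabp3, the heart fatty acid binding protein gene, averaged 17.4 and 9.98 (-0.75), and its maximum was 76 in the sham and 27 in the TAC library. The fatty acid transporters Cd36 and Slc27a1 and the lipid droplet gene Plin5 ranged from -0.80 to -0.71. Txnip stood at -0.73 and the domain of Pnpla2 at -0.44. In insulin and growth factor signalling 5 of 18 genes had a domain, and Irs1, Irs2, Foxo3, Vegfa and Akt1 ranged from -0.61 for Irs1 to -0.80 for Akt1.

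The genes known as Yap1 and TEAD targets had a domain in 3 of 18 cases, and in 0 when only domains listed for 1 gene were counted. Amotl2 is described above (-0.83). Cyr61, the matricellular protein CCN1, averaged 21.5 in the sham and 13.0 in the TAC library (-0.69), and Arhgef17, a guanine nucleotide exchange factor gene, 15.2 and 10.2 (-0.54). Of the Hippo pathway and TEAD genes 4 of 22 had a domain. Tead1 held one far inside the gene (12.8 and 6.86, -0.82) and Frmd6 one near its start (13.3 and 7.62, -0.73). Vgll4, a TEAD repressor gene, had averages of 12.4 and 8.76 (-0.46) with maxima of 100 and 68. Rassf1 was listed for a domain downstream of it that 7 other genes shared (-0.52). Of the 4 domains of the pathway, 2 lay below the median of all regions, against 69.1% of all domains.

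Immediate early and AP-1 genes had a domain in 11 of 25 cases (median -0.59). Below the median of all regions lay 9 of the 11 domains, against 69.1% of all domains. Mafk and Junb were among the strongest, as given above. Zfp36, an mRNA decay factor gene, averaged 26.7 in the sham and 16.2 in the TAC library (-0.69), and Jund, an AP-1 subunit gene, 20.8 and 13.6 (-0.58). Dusp1, a MAP kinase phosphatase gene, averaged 16.9 and 12.6 (-0.40), and Fosb 12.5 and 8.82 (-0.46), which were the 2 above that median. Btg2, Fosl2, Ier3, Klf2 and Klf6 ranged from -0.70 to -0.55.

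Circadian and glucocorticoid-responsive genes had a domain in 7 of 24 cases. All 11 of their domains lay below the median of all regions, against 69.1% of all domains (median of the list -0.64). The domain over the Per1 start averaged 24.7 and 15.3 (-0.65). Nr1d1, the REV-ERBalpha repressor gene, had 2 domains with averages of 22.4 and 20.01 in the sham and 12.6 and 11.0 in the TAC library (-0.78 and -0.81). The related PAR bZIP factor genes Dbp (22.2 and 11.9) and Tef (21.1 and 11.3) both stood at -0.85. Both domains were listed as downstream by their midpoints, 6002 bases from the Dbp start and 32959 bases from the Tef start. The Dbp domain held the Dbp promoter window. Cry2 stood at -0.62, Angptl4 at -0.54 and the 3 Zbtb16 domains between -0.64 and -0.60.

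**Figure D4:**
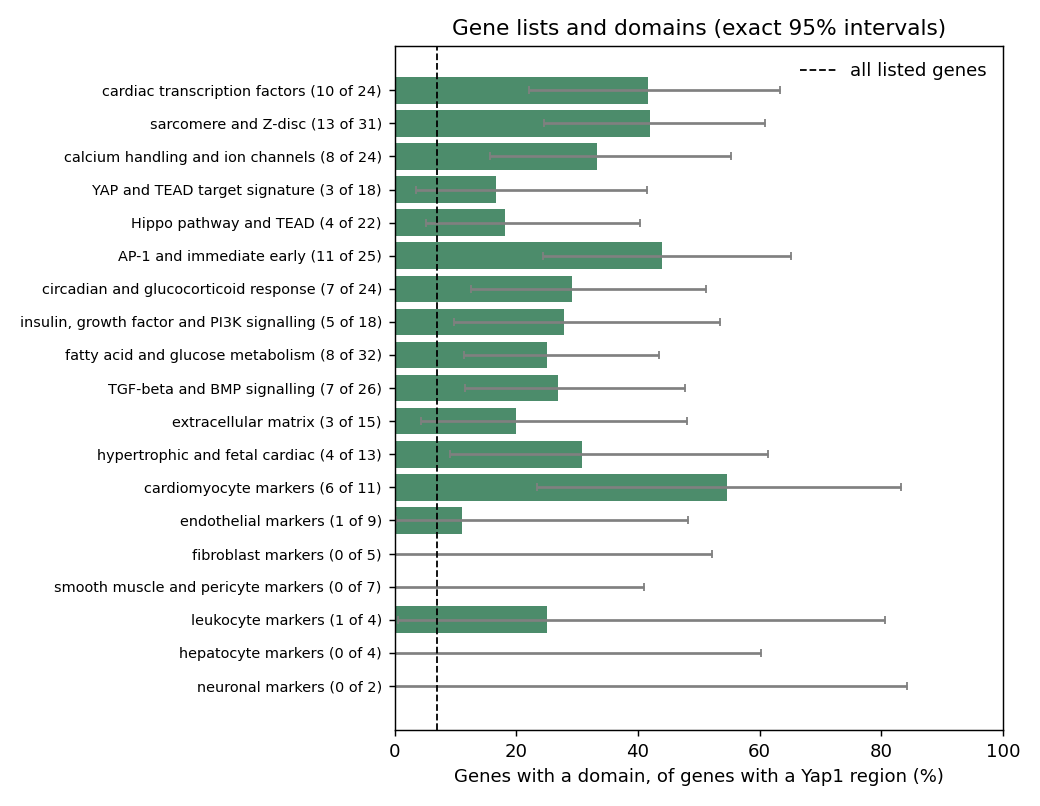
For each gene list, the percentage of genes with any region that had a broad domain, with exact 95% intervals, beside the 6.94% of all genes with a region. Intervals are wide because the lists are small, and the fibroblast, smooth muscle, hepatocyte and neuronal marker lists had 0 genes with a domain.

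The TGF-beta and BMP list and the matrix list had the least negative medians of the lists with a domain. In the TGF-beta and BMP list 7 of 26 genes had a domain. Of the 8 domains, 2 lay below the median of all regions, against 69.1% of all domains (median of the list -0.33). The domain downstream of Tgfb1, the ligand gene, averaged 11.3 in the sham and 9.67 in the TAC library (-0.20). The inhibitory Smad gene Smad7 averaged 11.2 and 9.17 (-0.26), and the 2 domains of the corepressor gene Ski had ratios of -0.33 and -0.33. Id1, a target of BMP signalling, averaged 14.0 and 10.9 (-0.34). Smad6, the other inhibitory Smad gene, averaged 16.0 and 9.39 (-0.71) and Id3 19.7 and 12.9 (-0.57), which were the 2 below that median, and Eng, a coreceptor gene, stood at -0.50. Of the matrix genes 3 of 15 had a domain, Col4a1 and Col4a2 as given above and Timp3, a metalloproteinase inhibitor gene, with averages of 20.7 and 12.2 (-0.71). Both lists kept a lower TAC than sham average in each of their domains.

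Genes of the hypertrophic and fetal program had a domain in 4 of 13 cases. Besides Myh7 and Xirp1, these were Rcan1, a calcineurin inhibitor and target gene, with averages of 11.8 and 7.38 (-0.61), and Nmrk2, a nicotinamide riboside kinase gene, with 14.3 and 9.13 (-0.60). All 5 domains had ratios below the median of all regions, against 69.1% of all domains, with a median of -0.61. The genes of this list thus had ratios like those of the domains as a whole.

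**Figure D5:**
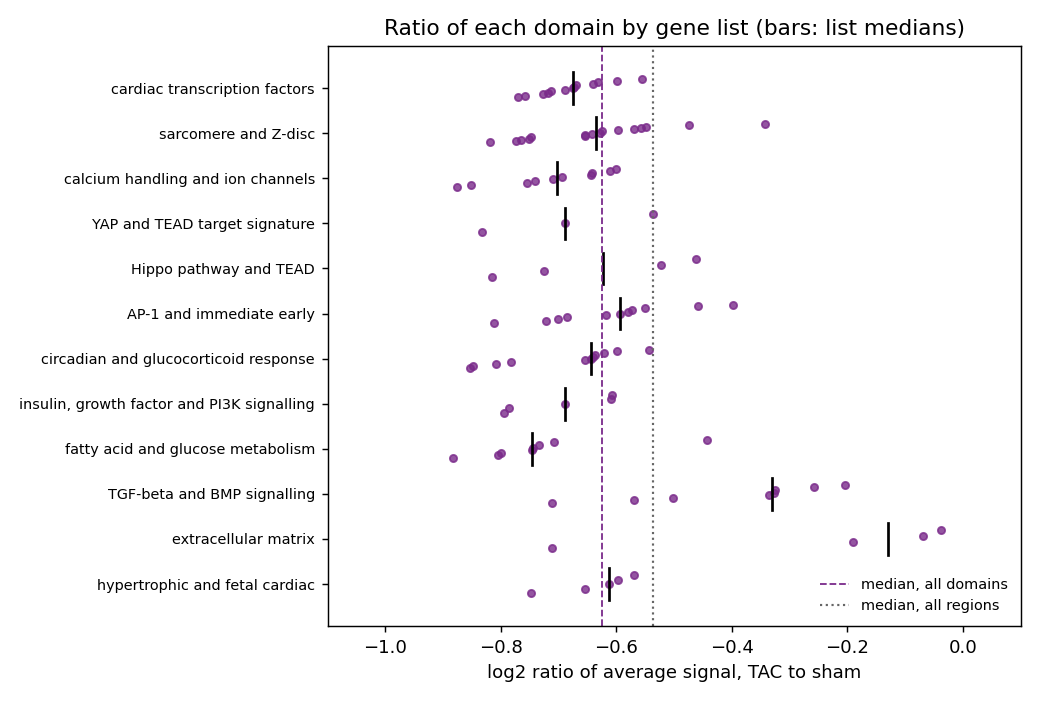
The log2 ratio of TAC to sham average signal of each domain, grouped by gene list, with the median of all regions (-0.54) and the median of all domains (-0.62) as lines and list medians as short bars. Cardiac, calcium handling and metabolic genes lie mostly left of the lines, and TGF-beta, BMP and matrix genes mostly right of them.

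Domains were listed for marker genes of heart muscle cells and for a few markers of other heart cells. Of 11 cardiomyocyte markers with a region, 6 had a domain (54.5%, exact 95% interval 23.4 to 83.3), namely Myh6, Myh7, Mybpc3, Tnnt2, Ryr2 and Pln. Ttn, Tnni3, Actn2, Myl2 and Myl3 had shorter regions only. When only domains listed for 1 gene were counted, 2 of the 11 had a domain. Markers of endothelial cells, fibroblasts, smooth muscle and pericytes, and leukocytes had a domain in 2 of 25 cases in all (8%, 0.984 to 26.03). By cell type these were 1 of 9 endothelial, 0 of 5 fibroblast, 0 of 7 smooth muscle and pericyte, and 1 of 4 leukocyte markers. The endothelial one was Egfl7, for a domain listed 29447 bases downstream of its start together with Agpat2 (15.2 and 7.53, -0.93), and the leukocyte one Sfpi1, for the domain that lies inside Mybpc3. Hepatocyte and neuronal markers had a domain in 0 of 6 cases, which allows a share of up to 50%. Marker genes that have no region in the table do not enter these counts.

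MicroRNA genes were listed to domains under 37 symbols, of which 24 were in the RefSeq sequences. The hairpin itself lay inside a domain for 8 of the 24, and 19 of all 1005 RefSeq hairpins did. The mature sequences of some microRNAs in or near domains, not the strongest by signal, are shown to compare their seeds, bases 2 to 8, which are in capitals.
mmu-miR-208a-3p: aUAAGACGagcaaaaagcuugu
mmu-miR-208b-3p: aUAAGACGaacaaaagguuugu
mmu-miR-26b-5p: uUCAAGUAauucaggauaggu
mmu-miR-26a-5p: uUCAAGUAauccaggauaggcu
mmu-let-7c-5p: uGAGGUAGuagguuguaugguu
mmu-let-7b-5p: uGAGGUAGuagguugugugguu
mmu-miR-22-3p: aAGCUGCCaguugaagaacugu
The shared seed of miR-208a and miR-208b, the microRNAs of the Myh6 and Myh7 introns, was UAAGACG. The miR-208a hairpin lay inside the weaker Myh6 domain (9.76 and 7.49), while that of miR-208b lay 570 bases outside the domain it was listed to. The shared seed of miR-26a and miR-26b was UCAAGUA. The miR-26b hairpin lay inside a domain with averages of 24.5 in the sham and 13.7 in the TAC library (-0.79), and that of the second miR-26a gene 3904 bases from the Ctdsp2 domain (22.8 and 12.2, -0.85). The miR-22 hairpin, known as an abundant microRNA of cardiac and skeletal muscle, lay inside a domain averaging 24.6 and 15.8 (-0.61). The let-7c and let-7b hairpins shared 1 domain with averages of 11.4 and 8.42 (-0.39) and the seed GAGGUAG. The miR-23a, miR-27a and miR-24 hairpins, listed to the domain with the highest TAC average, lay 2347 to 2644 bases outside it.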

How the data were processed

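Chromatin of snap-frozen hearts was immunoprecipitated with an anti-Yap1 antibody, per the labels' protocols. BWA, MACS 1.4.2 and mm10 are named in the submitters' processing notes. The deposited table holds 22020 merged regions with the authors' average and maximum signal per library, in an unstated unit with no stated scaling, a call per library, and counts of intervals, promoters, CpG islands and listed genes. Depth is unknown, so no counting error on signal can be given. The input library was not used.

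Regions of 8000 bases or more were taken as domains. Computed here were log2((TAC + 1)/(sham + 1)) per region, medians with 95% order-statistic intervals, shares with exact Clopper-Pearson intervals, upper limits of 3 counts for shares of 0, and overlaps with RefSeq genes, promoters and microRNAs (GRCm38.p6). The ratio, the median intervals, the distance between stretches and the TEAD motif search were tested on inputs with known answers. Of 935 listed symbols, 847 were current in RefSeq, 59 were synonyms and 29 did not match. With 1 library per operation no test was made.

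Named were the 10 longest domains, the 6 highest and 6 lowest ratios, the 5 strongest by average and by maximum signal in each library, the 5 of most intervals, up to 10 genes with several domains, and listed genes with a domain. A few of these genes are counted but not reported here by name. The members and lists were chosen with earlier results of these data known. Alternatives changed the signal measure, pseudocount, length limit, fold size and comparison set. Python 3.11.15, pandas 2.3.3, numpy 2.4.6 and scipy 1.17.1 were used.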

Additional observations from a re-analysis of the deposited data

How the results depend on the processing

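No paired analysis was possible because there was 1 library for each operation. Depth is unknown, and 1 library per operation gives no replicate error, so the values describe these libraries. The median log2 ratio over domains (-0.62) was -0.66 with the maximum signal, -0.67 with a pseudocount of 0.1 and -0.47 with a pseudocount of 5, and moved by less than its interval with length limits of 6, 10 and 12 kb, on autosomes and with calls in both libraries. The difference from shorter regions (-0.0922) was -0.11 with the maximum signal, -0.17 among regions called in both libraries, -0.14 among regions with a promoter, -0.050 among those without one, -0.13 among regions whose mean signal reached the median of all regions, and -0.024 against regions of 4 to 8 kb. The count of domains at least 1.5-fold lower in TAC (362) was 0 after subtracting the median of all regions, 2 at 2-fold, 86 with a pseudocount of 5, 769 of 1347 at 6 kb and 190 of 300 at 10 kb. The share called in TAC (93.7%) was 88.8% at 6 kb, 97.3% at 10 kb and 98.2% at 12 kb. The share with a promoter (54.6%) was 50.8% at 6 kb, 59.7% at 10 kb and 61.0% at 12 kb. Of the list genes, 83 had a domain, 126 at 6 kb, 48 at 10 kb and 40 when domains listed for 1 gene were counted. None of these values changed sign. The longer or shorter length limits change how many regions enter, and the cause of the other changes was not tested.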
